A study of Mus musculus with 6 samples.

Results

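The genes described here encode effector cytokines, the secreted signals through which activated T cells act on other cells: Ifng, Tnf, Il2, Il10, Il21, Il3, Csf2, Lta and Ltb. They were chosen by name, as every probe set of the array table annotated to one of these 9 genes, and this gave 9 of the 18193 genes with an annotated probe set, and 10 probe sets of 45101 in all, 2 of them for Il21. One further probe set is annotated to both Ntan1 and Il2 and was not read as Il2. The cells were CD8 T cells that infiltrated MCA-205 tumours, a transplanted mouse fibrosarcoma, in male C57BL/6 mice. These mice report Eomes, a T-box factor that CD8 T cells use in effector and memory states, by GFP. The T cells were sorted on GFP into an Eomes+ fraction (GFP-positive, 3 arrays) and an Eomes- fraction (GFP-negative, 3 arrays). Every mouse had been given 250 ug of an antibody to OX40 (aOX40) on day 12 and on day 16 after implantation and 200 ug of an antibody to CTLA-4 (aCTLA-4) on both of those days and also on day 14, with tumours taken on day 19. Both fractions therefore carry the same treatment and the same reporter. Mice without treatment are not part of the comparison. No label links an array to one of the 3 independent experiments or to an animal, so p-values reflect the spread between these 6 samples, which may be technical. How far a GFP-negative cell lacks Eomes rests on the reporter: Eomes signal was 9.54 ± 1.04 log2 on Eomes+ arrays and 6.39 ± 0.83 on Eomes- arrays (SD, n = 3 each).

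As background, effector cytokines are made briefly after the T cell receptor is engaged. Receptor signals activate NFAT, AP-1 and NF-kappaB, which bind the promoters and enhancers of these genes, while T-box and IRF family factors set which of them a cell can use. In tumours, IFN-gamma acts on tumour cells and macrophages, IL-2 sustains the T cells themselves, and loss of IL-2 and then of TNF and IFN-gamma production is a known feature of chronically stimulated CD8 T cells.

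The effector cytokine genes that could be measured averaged lower in Eomes+ cells, without passing the test. Of the 9 genes, 6 lay above the array's background mark on enough arrays to be tested, and all 6 averaged lower in Eomes+ than in Eomes- cells, which 52.6% of the 12571 tested genes did. The members were chosen with earlier results of these data known. Ifng, Csf2, Lta and Ltb were also all lowest on the third array of each fraction, so the 6 are not independent observations. The largest differences were those of Il2 (-2.12 log2), Ifng (-1.02) and Csf2 (-0.98), and the smallest those of Tnf (-0.37) and Ltb (-0.27). The median over the 6 was -0.86 log2, beside -0.016 over all tested genes. It was -0.42 without Eomes+ replicate 3, -0.45 without Eomes- replicate 2 and -1.39 without Eomes- replicate 3. No member passed correction over all genes (0 of 6; 0% of all genes passed limma's adjusted threshold of 0.05), and 0 of 6 had an unadjusted p under 0.05 (3.25% of all genes). In 0 of 6 did every Eomes+ array lie below every Eomes- array, a separation that 4.66% of all genes showed. The mean was at least 2-fold lower for 2 of 6, against 0.939% of all genes. The background mark is each array's 40th percentile, at 5.70 to 5.72 log2, and a gene was tested if it lay above it on at least 3 of the 6 arrays. The mark is a convention and not a detection limit, and since probe sets differ in brightness for the same amount of RNA, signals are compared here only within a gene.

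**Figure D1:**
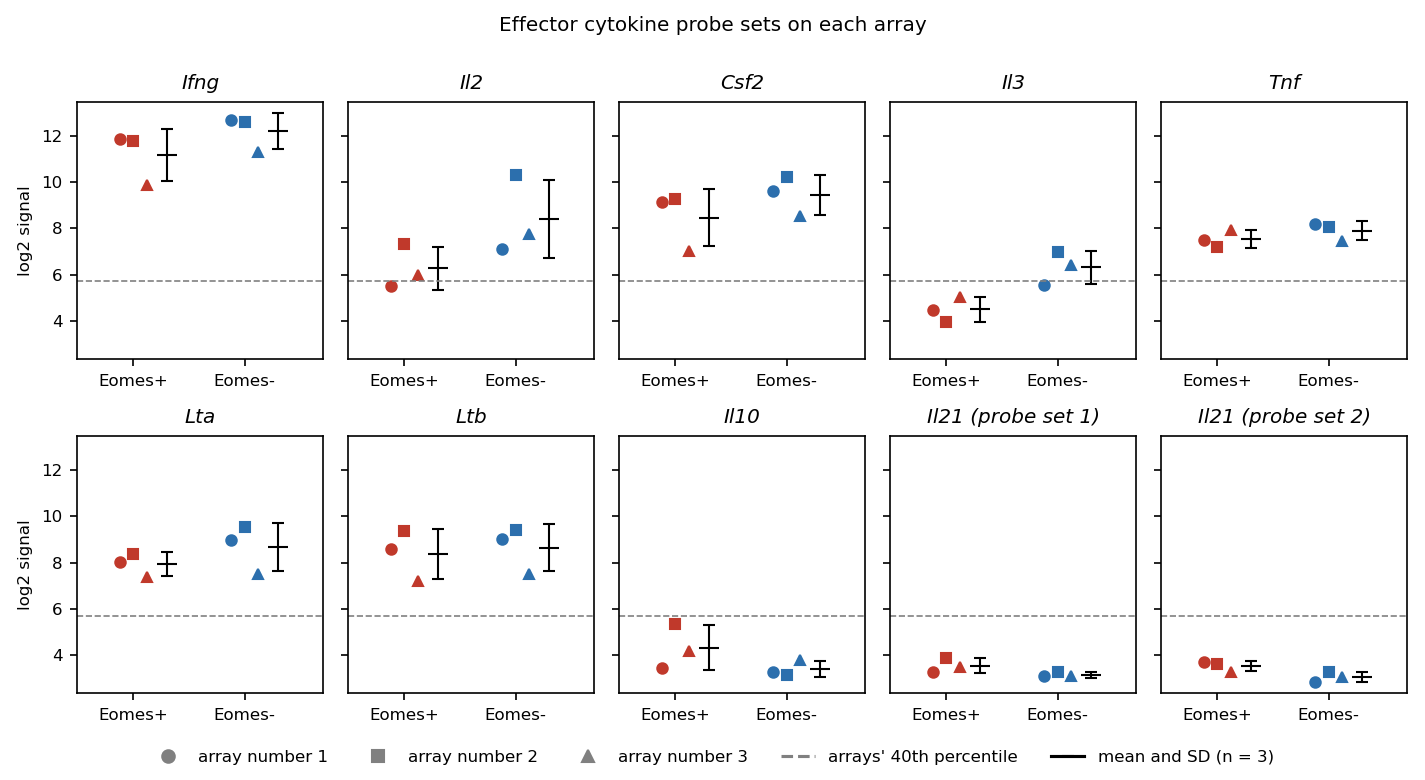
Log2 signal (vertical axis) of the 10 effector cytokine probe sets on each array, Eomes+ (red) left of Eomes- (blue), with symbols for the array number, bars for mean and SD (n = 3) and a dashed line at the arrays' mean 40th percentile. Il3 is the only one of the 10 whose Eomes+ values all lie below its Eomes- values, and Il10 and Il21 lie below the line on all 6 arrays.

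**Figure D2:**
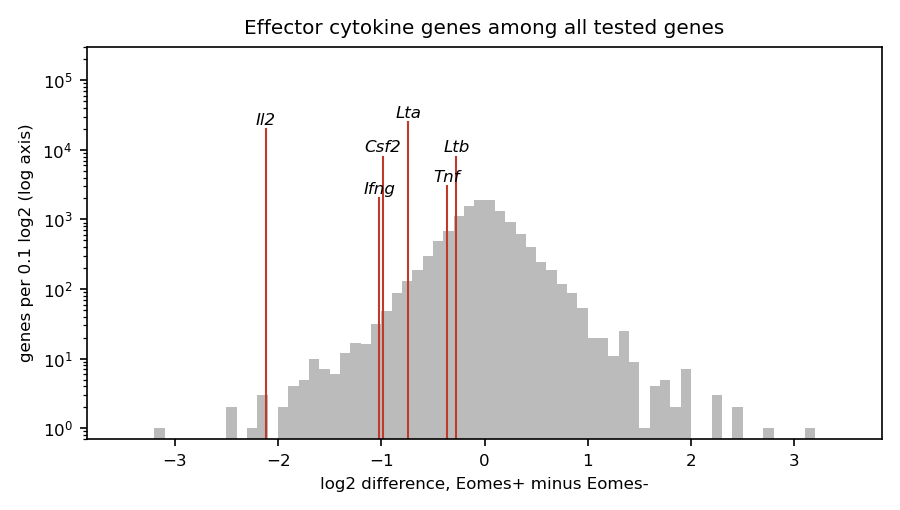
Histogram of the log2 difference (Eomes+ minus Eomes-, horizontal axis) of all 12571 tested genes, with the number of genes on a log axis. Red lines mark the 6 tested effector cytokine genes, which all lie left of 0, from Il2 at -2.12 to Ltb at -0.27.

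The promoters of Il2, Ifng and Csf2, the tested members with the largest differences, and of Il3, the neighbour of Csf2, are shown because sequences near the start of a cytokine gene are known to take part in its induction by receptor signals. Of the 9 genes, 8 have an entry in the promoter table of RefSeq (assembly GRCm38.p6). Each sequence is the 250 bases before the annotated start, in the direction of transcription. Capitals mark matches, on either strand, to the NFAT core GGAAA and to TATAAA, the TATA box. The windows are chr3:37125955-37126204 on the minus strand for Il2, chr11:54267280-54267529 on the minus strand for Il3, chr10:118440796-118441045 on the plus strand for Ifng and chr11:54249900-54250149 on the minus strand for Csf2.
Il2: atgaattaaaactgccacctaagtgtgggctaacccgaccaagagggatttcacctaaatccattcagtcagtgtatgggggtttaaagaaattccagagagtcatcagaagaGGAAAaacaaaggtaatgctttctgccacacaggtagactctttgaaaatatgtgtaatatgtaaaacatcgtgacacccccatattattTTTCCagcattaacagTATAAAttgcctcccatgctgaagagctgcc
Il3: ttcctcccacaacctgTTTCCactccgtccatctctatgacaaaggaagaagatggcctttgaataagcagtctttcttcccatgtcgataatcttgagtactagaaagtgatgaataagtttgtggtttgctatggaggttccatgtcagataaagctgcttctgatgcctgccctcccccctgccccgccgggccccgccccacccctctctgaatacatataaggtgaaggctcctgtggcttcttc
Ifng: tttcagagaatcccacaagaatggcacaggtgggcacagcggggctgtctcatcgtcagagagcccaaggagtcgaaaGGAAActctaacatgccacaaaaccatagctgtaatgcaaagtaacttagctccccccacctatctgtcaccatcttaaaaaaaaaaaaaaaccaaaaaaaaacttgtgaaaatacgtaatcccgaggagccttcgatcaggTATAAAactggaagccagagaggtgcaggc
Csf2: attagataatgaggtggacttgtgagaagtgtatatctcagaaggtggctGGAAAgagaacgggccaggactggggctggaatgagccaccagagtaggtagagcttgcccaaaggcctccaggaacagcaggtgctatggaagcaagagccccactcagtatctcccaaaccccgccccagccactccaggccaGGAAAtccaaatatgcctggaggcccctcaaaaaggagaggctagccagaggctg

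The NFAT core occurred in the window of 8 of 8 members with an entry, as it did in 55.6% of 32851 promoters of the same length. Il2 held 2 copies, 133 to 137 and 43 to 47 bases upstream of the start, Csf2 held 2, Ifng held 1 at 168 to 172 bases, and Il3 held 1 at 230 to 234 bases. TATAAA occurred in 4 of 8 (Il2, Ifng, Tnf and Lta), against 12.4% of all promoters, and lay 25 to 30 bases upstream in Ifng, 26 to 31 in Il2, 24 to 29 in Tnf and 162 to 167 in Lta. The AP-1 motif TGANTCA (6.75% of all promoters) and the T-box motif GGTGTGA (3.33%) had 0 matches in these 8 windows, also with both strands searched. These are matches of letters in a short window and do not show where a factor binds. Among neighbouring protein-coding genes in the same assembly, Il2 lies next to Il21 on chromosome 3, Csf2 next to Il3 on chromosome 11, and Ltb, Tnf and Lta follow each other on chromosome 17.

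Ifng encodes interferon-gamma, the cytokine by which CD8 T cells raise antigen presentation in their targets and activate macrophages. Its signal was 11.85, 11.79 and 9.87 log2 on Eomes+ arrays 1, 2 and 3, against 12.67, 12.60 and 11.29 log2 on the Eomes- arrays. Both fractions had strong Ifng signal, far above the mark on all 6 arrays, and the groups overlapped because the third Eomes- array lay below 2 Eomes+ arrays. Ifng averaged 11.17 ± 1.13 log2 in Eomes+ cells and 12.19 ± 0.78 in Eomes- cells (SD, n = 3 each), a 2.03-fold lower mean (log2 difference -1.02, SE 0.63; limma unadjusted p = 0.152, adjusted p = 1.00). Without Eomes+ replicate 3 the difference was -0.37 log2.

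Il2 encodes interleukin-2, the T cell growth factor. Its signal was 5.53, 7.33 and 5.98 log2 on Eomes+ arrays 1, 2 and 3, against 7.13, 10.30 and 7.78 log2 on the Eomes- arrays. The first Eomes+ array lay below the mark, the second Eomes- array stood well above the other arrays, and the groups overlapped only in that the second Eomes+ array exceeded the first Eomes- array. Il2 averaged 6.28 ± 0.94 log2 in Eomes+ cells and 8.40 ± 1.68 in Eomes- cells (SD, n = 3 each), a 4.34-fold lower mean (log2 difference -2.12, SE 0.89; limma unadjusted p = 0.0519, adjusted p = 1.00). Since the first Eomes+ value lay below the mark and the third, 5.98 log2, only slightly above it, the size of this difference is uncertain. Without Eomes- replicate 2 the difference was -1.17 log2. The probe set shared with Ntan1 gave 9.85, 9.91 and 9.83 log2 on Eomes+ arrays, against 9.51, 9.69 and 9.29 log2 on Eomes- arrays, the opposite direction, and its annotation does not say which gene it reads.

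Csf2 and Il3 encode the growth factors GM-CSF and interleukin-3, which act on myeloid cells through receptors that share a beta chain. Csf2 signal was 9.12, 9.26 and 7.03 log2 on Eomes+ arrays, against 9.62, 10.23 and 8.52 log2 on Eomes- arrays. The third Eomes+ array was the lowest of the 6, and the third Eomes- array lay below the other 2 Eomes+ arrays. Csf2 averaged 8.47 ± 1.25 log2 in Eomes+ cells and 9.45 ± 0.87 in Eomes- cells (SD, n = 3 each), a 1.98-fold lower mean (log2 difference -0.98, SE 0.71; limma unadjusted p = 0.213, adjusted p = 1.00), and the difference was -0.26 log2 with Eomes+ replicate 3 left out and -0.60 with Eomes- replicate 2 left out.

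Il3 was too dim to be tested with the other genes. Its signal was 4.49, 3.97 and 5.06 log2 on Eomes+ arrays, all 3 below the mark, against 5.55, 6.99 and 6.41 log2 on Eomes- arrays, of which 2 lay above it. Every Eomes+ array was below every Eomes- array, with a gap of 0.49 log2 between the groups. With the Eomes+ values raised to the mark, the Il3 mean was 1.53-fold lower in Eomes+ cells. The measured means were 4.51 ± 0.54 log2 in Eomes+ and 6.32 ± 0.72 log2 in Eomes- cells (SD, n = 3 each). The fold is not a firm minimum, since the mark is a convention and the first Eomes- array also lay below it. A two-sided exact permutation test gave p = 0.1, the lowest that 3 against 3 can reach. In a fit of 18193 genes without the filter the difference was -1.81 log2 (limma unadjusted p = 0.0045, adjusted p = 1.00).

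Tnf, Lta and Ltb encode the neighbouring TNF family ligands: tumour necrosis factor, an inflammatory cytokine that macrophages also make, lymphotoxin alpha, which is secreted or joins lymphotoxin beta, and lymphotoxin beta, which holds that complex at the cell surface to engage the lymphotoxin beta receptor. Tnf signal was 7.49, 7.19 and 7.94 log2 on Eomes+ arrays, against 8.21, 8.06 and 7.44 log2 on Eomes- arrays. The first and second Eomes- arrays were above every Eomes+ array, and the third was below 2 of them. Tnf averaged 7.54 ± 0.38 log2 in Eomes+ cells and 7.90 ± 0.41 in Eomes- cells (SD, n = 3 each), a 1.29-fold lower mean (log2 difference -0.37, SE 0.33; limma unadjusted p = 0.305, adjusted p = 1.00). The difference was -0.19 log2 without Eomes+ replicate 2, -0.57 without Eomes+ replicate 3, -0.21 without Eomes- replicate 1 and -0.60 without Eomes- replicate 3.

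Lta signal was 8.03, 8.39 and 7.39 log2 on Eomes+ arrays, against 8.99, 9.53 and 7.51 log2 on Eomes- arrays. Again the first and second Eomes- arrays were above every Eomes+ array and the third was not. Lta averaged 7.94 ± 0.51 log2 in Eomes+ cells and 8.68 ± 1.05 in Eomes- cells (SD, n = 3 each), a 1.67-fold lower mean (log2 difference -0.74, SE 0.57; limma unadjusted p = 0.235, adjusted p = 1.00), and the difference was -1.32 log2 with Eomes- replicate 3 left out, -0.31 with Eomes- replicate 2 left out and -0.47 with Eomes+ replicate 3 left out. Ltb signal was 8.57, 9.35 and 7.20 log2 on Eomes+ arrays, against 9.03, 9.41 and 7.49 log2 on Eomes- arrays. These ranges nearly coincide, and the difference was -0.27 log2 (SE 0.70; limma unadjusted p = 0.711, adjusted p = 1.00), which turned to 0.32 log2 without Eomes+ replicate 3 and to 0.11 without Eomes- replicate 2, and was -0.76 without Eomes+ replicate 2, -0.08 without Eomes- replicate 1 and -0.85 without Eomes- replicate 3.

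Il10, which encodes an anti-inflammatory cytokine, and Il21, which encodes a cytokine mainly of helper T cells, gave no signal above the mark on any of the 6 arrays. Il10 read 3.46, 5.36 and 4.17 log2 on Eomes+ arrays, against 3.29, 3.17 and 3.82 log2 on Eomes- arrays. One Il21 probe set read 3.27, 3.90 and 3.50 log2 on Eomes+ arrays, against 3.09, 3.30 and 3.10 log2 on Eomes- arrays, and the other 3.72, 3.62 and 3.28 log2 against 2.87, 3.30 and 3.07. At this level no fold is given, and the array does not tell a low amount of these RNAs from none.

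**Figure D3:**
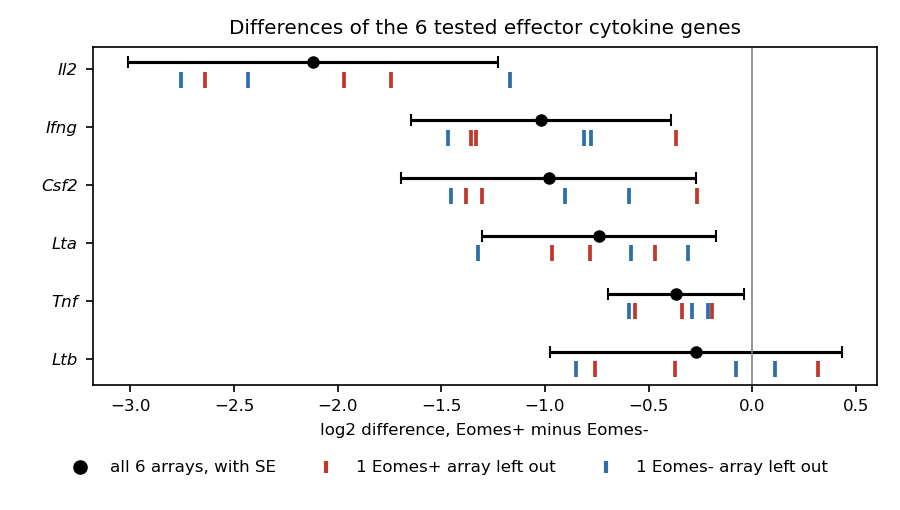
Log2 difference (Eomes+ minus Eomes-, horizontal axis) of each tested effector cytokine gene, with the value over all 6 arrays and its SE (black) and the values with 1 Eomes+ array (red) or 1 Eomes- array (blue) left out. Ltb alone crosses 0, reaching 0.32, and Ifng ranges between -1.47 and -0.37.

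The members did not vary in the same way among arrays of one fraction. Ifng, Csf2, Lta and Ltb were lowest on the third array of both fractions: relative to the fraction's mean, Ifng deviated by -1.30 log2 on Eomes+ array 3 and by -0.90 on Eomes- array 3, and Ltb by -1.18 and -1.15. Il2 did not follow them, with its lowest value on array 1 of each fraction and its highest on array 2. Tnf was highest on array 3 among Eomes+ arrays (0.40 log2 above their mean) and lowest on array 3 among Eomes- arrays (-0.46).

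Signal of genes of other cell types also differed between arrays. The mean of 13 tested T cell receptor and CD8 identity genes was 12.18, 11.98 and 10.93 log2 on Eomes+ arrays, against 12.29, 12.30 and 11.05 log2 on Eomes- arrays. For 18 genes of macrophages and monocytes the mean was 8.47, 9.96 and 10.88 log2, against 8.12, 9.23 and 10.85 log2, and that of 17 fibrosarcoma and fibroblast genes 9.78, 11.44 and 12.27 log2, against 9.78, 10.73 and 12.39 log2. The third array of each fraction thus had the least T cell signal and the most signal of macrophages and tumour. Of these macrophage genes 16 of 18 were higher in mean in Eomes+ cells (median 0.31 log2), as were 5962 of all 12571 tested genes. T cell identity genes were lower in 11 of 13 (median -0.12 log2), as were 52.6% of all tested genes. Genes of 1 list share the array differences above, so these counts are not of independent observations. By limma 0 genes of either list passed the adjusted threshold and 0 had an unadjusted p under 0.05. In bulk samples fewer cells of a type and less RNA per cell cannot be told apart. Centring each array on its T cell identity genes subtracts 1 value per array, so every gene's difference moved by the same amount: the median over all genes became 0.17 log2, Ifng -0.83, Il2 -1.93, Tnf -0.18 and Ltb -0.09, and each member's distance from the median of all genes is unchanged by construction. With the macrophage and fibrosarcoma level as a covariate Ifng was at -0.84 log2, Il2 at -2.17, Csf2 at -0.81, Lta at -0.62, Tnf at -0.34 and Ltb at -0.12.

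**Figure D4:**
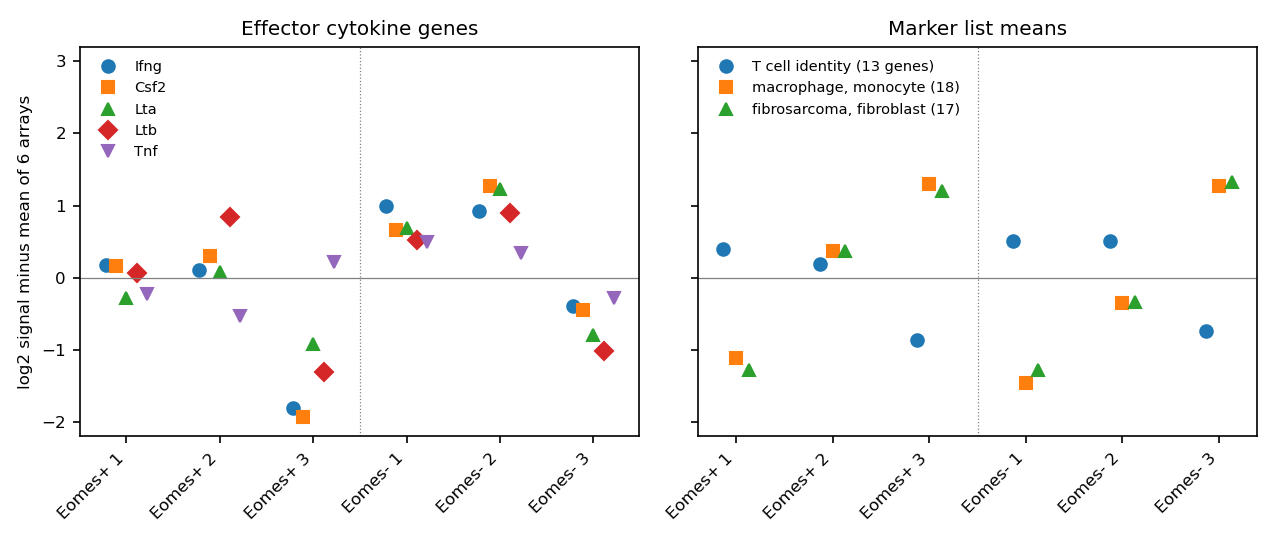
Log2 signal on each array minus the mean of the 6 arrays (vertical axis) for 5 effector cytokine genes (left) and for the mean of 3 marker lists (right), Eomes+ arrays left of Eomes- arrays. Ifng, Csf2, Lta and Ltb are lowest on the third array of each fraction, where T cell identity genes are low and macrophage and fibrosarcoma genes high.

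The identity of the sorted cells was checked against defining markers. Cd8a lay between 11.95 and 13.55 log2 and Cd3e between 11.78 and 12.93 over the 6 arrays. Cd4 lay between 6.74 and 7.58 log2 and Foxp3 between 7.25 and 8.19, both above the mark on all 6 arrays. Of 9 CD4 and regulatory T cell markers, 8 had a lower mean in Eomes+ cells (52.6% of all tested genes did), with a median of -0.46 log2. By limma 0 passed the adjusted threshold, and only Cd40lg had an unadjusted p under 0.05 (3.25% of all tested genes did). Cd40lg was below the mark on all 3 Eomes+ arrays and was tested only through its Eomes- arrays. The list's mean was 9.0, 8.83 and 8.35 log2 on Eomes+ arrays, against 9.53, 9.72 and 8.74 log2 on Eomes- arrays. Ctla4 differed by -0.85 log2 (SE 0.43), Tnfrsf18 by -0.97 (SE 0.59) and Il2ra by -0.87 (SE 0.59). Differences were smaller for Cd4 (-0.24 log2, SE 0.27), Foxp3 (-0.34, SE 0.27) and Zbtb7b (-0.28, SE 0.32). Ikzf2 alone was higher in mean in Eomes+ cells (0.32 log2, SE 0.8). How much of this signal came from the CD8 T cells themselves was not tested. Helper T cells also make Il2, Il3 and Csf2, and the part of these cells in the members' differences was not tested. Markers of B and plasma cells were dim, with 5 of 9 tested and list means between 5.86 and 6.92 log2. Ncr1, which marks NK cells, and Cpa3, which marks mast cells, lay below the mark on all 6 arrays. Of the NK list, 4 of 7 genes were tested (list means of 8.95 to 9.81 log2), including Tyrobp and Fcer1g, which myeloid cells also express. Of these, 1 was lower and 3 were higher in mean in Eomes+ cells (median 0.09 log2), the lower one being Klrb1b. Klrb1b, which encodes a receptor of NK cells, read 7.51, 7.95 and 7.86 log2 on Eomes+ arrays, against 9.59, 9.19 and 8.68 log2 on Eomes- arrays, with no overlap (log2 difference -1.38, SE 0.31; limma unadjusted p = 0.00335, adjusted p = 1.00), and the part of NK cells in the members' differences was not tested. Mast cell and basophil genes (6 of 10 tested) had list means of 5.97 to 6.96 log2, dendritic cell genes (5 of 9) 8.44 to 9.08, and neutrophil genes (3 of 8) 6.33 to 9.20, highest on the third array of each fraction.

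Among the receptors of these cytokines, 15 of 16 genes were tested, 9 with a lower and 6 with a higher mean in Eomes+ cells (limma 0 past the adjusted threshold and 0 at an unadjusted p under 0.05), with a median of -0.09 log2. Il2ra, the inducible alpha chain of the IL-2 receptor, read 9.98, 9.31 and 8.32 log2 on Eomes+ arrays, against 10.66, 10.58 and 8.98 log2 on Eomes- arrays, a difference of -0.87 log2 (SE 0.59) with overlapping groups. Il10ra differed by -0.63 log2 (SE 0.49) and Il21r by -0.38 (SE 0.44), while Csf2rb2, a beta chain of the IL-3 receptor in mice, differed by 0.73 (SE 0.87) and was highest on the third array of each fraction.

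Of the transcription factors that act on cytokine genes, 31 of 32 were tested, 19 lower and 12 higher in mean in Eomes+ cells, with a median of -0.11 log2. By limma 0 passed the adjusted threshold, and 3 of 31 had an unadjusted p under 0.05 (Eomes, Irf4 and Bhlhe40), against 3.25% of all tested genes. Eomes is the gene whose reporter defined the fractions, so its difference follows from the sort and is no finding about the list. For 2 every Eomes+ array lay below every Eomes- array (4.66% of all genes). Irf4, a factor induced in proportion to receptor signal strength, read 8.46, 8.01 and 6.60 log2 on Eomes+ arrays, against 9.91, 9.84 and 8.66 log2 on Eomes- arrays, and the groups did not overlap (log2 difference -1.78, SE 0.58; limma unadjusted p = 0.0193, adjusted p = 1.00). Bhlhe40, which sustains IFN-gamma and GM-CSF production and holds down IL-10, read 11.99, 11.90 and 11.59 log2 on Eomes+ arrays, against 12.73, 12.83 and 11.98 log2 on Eomes- arrays (log2 difference -0.69, SE 0.25). Prdm1, which encodes Blimp-1, a repressor of Il2, was also lower on every Eomes+ array than on any Eomes- array (-0.71 log2, SE 0.31). Regulators of cytokine mRNA stability had a median of 0.02 log2 (11 of 12 tested, 5 lower and 6 higher; 0 past the adjusted threshold and 0 at an unadjusted p under 0.05). Among them Zc3h12a, the RNase Regnase-1 that degrades cytokine mRNAs, differed by -0.44 log2 (SE 0.43), and the genes of the Roquin proteins Rc3h1 and Rc3h2 by 0.21 (SE 0.21) and -0.36 (SE 0.31).

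Genes known to respond to these cytokines had list medians near 0. Of 19 tested interferon-gamma target genes, 7 were lower and 12 higher in mean in Eomes+ cells (median 0.09 log2). By limma 0 passed the adjusted threshold and 1, Psmb9, had an unadjusted p under 0.05, which 3.25% of all tested genes had. Psmb9 was lower on every Eomes+ array than on any Eomes- array (-0.27 log2, SE 0.1), a separation that 4.66% of all genes showed. Irf8 differed by -0.87 log2 (SE 0.39) and Irf1 by 0.42 (SE 0.30). TNF and NF-kappaB target genes were lower in mean in 5 of 14 and higher in 9 (median 0.10 log2; 0 past the threshold, 1 at an unadjusted p under 0.05), and Tnip1 (0.38 log2, SE 0.15) and Nfkbie (0.37, SE 0.19), both inhibitors of the pathway, were higher on every Eomes+ array than on any Eomes- array. Nfkb2, a subunit of NF-kappaB, was lower on every Eomes+ array (-0.19 log2, SE 0.19), a separation that 4.66% of all genes showed. The share of all genes separated upward, as Tnip1, Nfkbie, Socs3 and Ilf2 were, was not counted. Targets of IL-2 and STAT5 had a median of 0.02 log2 (14 tested, 6 lower and 8 higher; 0 past the threshold, 1 at an unadjusted p under 0.05). Socs3, a feedback inhibitor of STAT3-dependent cytokine receptors, read 12.22, 11.73 and 11.99 log2 on Eomes+ arrays, against 10.22, 9.93 and 11.61 log2 on Eomes- arrays, with no overlap (log2 difference 1.39, SE 0.44; limma unadjusted p = 0.0168, adjusted p = 1.00), whereas Socs2 differed by -0.83 log2 (SE 0.45). Tnfrsf4, which encodes OX40, had the most negative difference of this list, -1.24 log2 (SE 0.54), with overlapping groups. Il2ra, given above at -0.87 log2, was also on this list, and Pim1 differed by 0.27 (SE 0.18). Genes that process TNF and lymphotoxin had a median of -0.10 log2 (7 tested, 4 lower and 3 higher, with 0 past either threshold), with Rhbdf2, which carries the TNF-shedding protease to the cell surface, at -0.31 (SE 0.26). Whether target genes read signals in T cells or in the macrophage and tumour RNA on the same arrays was not tested.

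Of 17 tested genes for other cytokines and chemokines of lymphocytes, 13 were lower and 4 higher in mean in Eomes+ cells (median -0.24 log2). By limma 0 passed the adjusted threshold. Only Cd40lg, tested only through its Eomes- arrays, had an unadjusted p under 0.05 (3.25% of all tested genes did). The other 11 of 28, among them Il4, Il5, Il9, Il17a and Il22, were not tested here. Ccl4, a chemokine of activated CD8 T cells, read 9.92, 9.61 and 8.88 log2 on Eomes+ arrays, against 10.58, 11.21 and 9.75 log2 on Eomes- arrays (log2 difference -1.04, SE 0.44). Ccl1 differed by -1.51 log2 (SE 0.65) and Tnfsf11, which encodes RANKL, by -1.52 (SE 0.70). Cd40lg, the ligand by which helper T cells engage CD40, read 5.06, 4.74 and 4.78 log2 on Eomes+ arrays, all below the mark, against 5.74, 7.56 and 6.38 log2 on Eomes- arrays.

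The genes with profiles most like those of Ifng and Il2 were found by the root mean square difference between log2 signals centred on each gene's mean over the 6 arrays. Nearest to Ifng were Pglyrp1 (0.11 log2), Kcnq5 (0.136), Tmem62 (0.146) and Tmem163 (0.148), where the median over all tested genes was 0.96. Pglyrp1, which encodes a peptidoglycan recognition protein, read 11.02, 10.61 and 8.84 log2 on Eomes+ arrays, against 11.60, 11.58 and 10.18 log2 on Eomes- arrays, so it dips on the third array of both fractions as Ifng does. Nearest to Il2, and less close, were Cd40lg (0.794 log2), Cnnm2 (0.799), Aqp11 (0.892) and Alcam (1.00), where the median was 1.57. These distances describe 6 arrays, which also differ in the level of T cell identity genes.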

How the data were processed

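RNA of 6 samples, grouped by their titles, was measured on microarrays. The authors deposited log2 values between 1.68 and 14.95 for 45101 probe sets, and the log2 scale was read from the values. The submitters' processing notes name MAS5 and the Transcriptome Analysis Console, with no version and no role, so how probes were summarised is not stated. Array medians lay between 6.35 and 6.42 log2, so a shift common to most genes would not show.

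After removal of 64 control probe sets, the platform annotation named 1 gene for 34945 of 45037 probe sets, several for 932 and none for 9160, with symbols brought up to date by gene identifier (RefSeq). A probe set was used if 3 or more of the 6 arrays put it above their 40th percentile (27766), and a gene was read by its brightest one (12571 genes). The test was limma's (version 3.58.1, R 4.3.3; lmFit, eBayes with intensity trend, two-sided), with the fraction as the only term, p-values adjusted by Benjamini-Hochberg over these genes, and 0.05 as threshold. The code was tested on simulated data. Alternatives were a replicate block, other filters, probe set choices, pseudocounts, normalizations, weights and variance models, a covariate and arrays left out. The members and lists were chosen with earlier results of these data known. Named genes were all members, Eomes, defining markers, up to 4 of smallest p per list, and the 4 profiles nearest to Ifng and Il2. The number of arrays limits the precision.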

Additional observations from a re-analysis of the deposited data

How the results depend on the processing

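Over 24 alternatives, the direction and side of the threshold of the 6 tested members held in 141 of 144 values. The exceptions were Ltb, which turned to 0.32 log2 without Eomes+ replicate 3 and to 0.11 without Eomes- replicate 2 (range with 1 array left out -0.85 to 0.32), and Ifng, which passed (-0.82 log2, limma adjusted p = 0.034) in a fit added after seeing the data that combined the replicate block with leaving out both arrays of number 3; the causes were not tested. Much of the 141 could hardly have come out otherwise. Outside the replicate block, array weights and covariate fits no gene of any kind passed, so no member could change its side there. The replicate block over all arrays, the filters, the probe set mean and the model without variance trend left each tested member's difference unchanged. With 1 array left out the median of the members lay between -1.39 and -0.42 log2. All tested members were lower in 21 of 24 alternatives, and the others were both Ltb cases and the fit without a filter, where 7 of 9 were lower and the 2 others, Il10 and Il21, lay below the mark on all arrays, so that their direction is not read. Centring on T cell identity genes moved every gene alike, the median of all genes to 0.17 log2 and that of the members to -0.68. Quantile normalization and median centring left 6 of 6 lower.

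No label says that replicate numbers pair the arrays, and the main fit did not use them. Between Eomes+ and Eomes- arrays of one number, deviations from the fraction's mean had r = 0.595, 0.0989 and 0.628 over probe sets. The nearest Eomes+ array to Eomes- replicate 2 was replicate 1 (r = 0.302). Within all 3 numbers the Eomes+ array was the lower for 5 of 6 tested members. The exception was Tnf, 0.49 log2 higher in Eomes+ within number 3. How often other genes did so was not counted. With the replicate block limma called 17 genes against 0, and no member (0); Ifng had SE 0.14 (adjusted p = 0.0613), Il2 SE 0.33 (0.0817) and Csf2 SE 0.24 (0.248), and 4 of 6 members had an unadjusted p under 0.05 (1276 of 12571 genes) against 0 of 6 (409 genes) without it. Array weights called 253 genes and no member (0), the covariate 8 and 0, and the block without both arrays of number 3 called 68 genes, 1 of them a member (1). Signal near background limits what can be said of Il2, Il3, Il10 and Il21.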

Other observations

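Of 19 cytokine genes mostly of myeloid and stromal cells, 8 were tested, 5 with a lower and 3 with a higher mean in Eomes+ cells (median -0.11 log2). By limma 0 passed the adjusted threshold and 1 had an unadjusted p under 0.05 (3.25% of all tested genes did). Csf1, which encodes the macrophage growth factor M-CSF, read 10.51, 10.89 and 11.66 log2 on Eomes+ arrays, against 12.08, 11.98 and 11.92 log2 on Eomes- arrays. Every Eomes+ array lay below every Eomes- array (log2 difference -0.97, SE 0.29; limma unadjusted p = 0.0137, adjusted p = 1.00), whereas the macrophage and monocyte list had a median of 0.31 log2. Il15 and Il18 differed by -0.34 log2 (SE 1.04) and -0.38 (SE 0.95), with the highest value of each fraction on array 3.

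Among regulators of cytokine mRNA, Ilf2 was higher on every Eomes+ array than on any Eomes- array. It encodes an RNA-binding partner in a complex first studied at the Il2 gene. It read 9.26, 9.27 and 9.30 log2 on Eomes+ arrays, against 9.05, 8.63 and 8.93 log2 on Eomes- arrays (log2 difference 0.41, SE 0.21; limma unadjusted p = 0.0958, adjusted p = 1.00).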
